A study of Homo sapiens with 6 samples.

Results

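Mitochondrial ribosomal protein genes encode the protein shell of the ribosome that works inside mitochondria. They were taken here as every gene in the count table whose symbol is MRPL or MRPS followed by a number and at most 1 letter from A to C, which gave 78 of 31413 genes. Of these, 49 carry MRPL names, used for the large subunit, and 29 carry MRPS names, used for the small subunit. Symbols alone decided which genes entered, but the group itself was chosen with earlier results of these data known. All 78 passed the filter on low counts.

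The series holds 6 RNA-seq libraries of C42, an established human prostate cancer cell line of the LNCaP lineage that grows without androgen. Of these, 3 libraries (numbered 1, 2 and 4) carry a control short hairpin RNA, shCTR, and 3 (numbered 1, 2 and 3) carry a hairpin against NSD2, shNSD2. All 6 were grown in RPMI medium with serum and antibiotics. NSD2, also called WHSC1, is a methyltransferase of histone H3 lysine 36. The comparison asks which transcripts differ when NSD2 is reduced, with shCTR as the reference. No label says whether the libraries of a group came from separate cultures. The p-values therefore reflect how far these libraries lie from each other, and that spread may be technical only. How many hairpin sequences were used, and whether cells were pooled or cloned, is not given in the sources used here.

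The mitochondrial ribosome translates the few proteins encoded by mitochondrial DNA, which are core subunits of the respiratory chain and ATP synthase. Its RNAs come from the mitochondrial genome, while all of its proteins are encoded in the nucleus, made in the cytosol and imported. Many of these proteins descend from the bacterial ribosome, and others were added during the evolution of mitochondria.

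Total counts ran from 19412896 to 20665494 per library, and a count of 3 was worth 0.145 to 0.156 CPM (counts scaled to a common library size). NSD2 itself stood at 219, 223 and 200 CPM in shCTR 1, 2 and 4 and at 85.3, 86.4 and 89.7 CPM in shNSD2 1, 2 and 3. Every knockdown library was far below every control, and the mean went from 214 ± 12.1 CPM to 87.1 ± 2.28 CPM (SD over 3 libraries). NSD2 fell by 1.30 on the log2 scale (SE 0.0870, edgeR adjusted p = 8.03e-05), and a two-sided exact permutation test on CPM gave p = 0.1, which no set of 3 against 3 libraries can go below. The 10 luminal prostate markers were all detected in every library, and their summed level was 11351 to 12434 CPM in shCTR and 10676 to 11134 CPM in shNSD2. The keratin genes KRT8 (0.41) and KRT18 (0.48) rose on the log2 scale, and the kallikrein gene KLK2 (-0.37) fell. Of 5 leukocyte markers 2 had an entry, CD68 with at most 14 counts and CD14 with at most 5, and their sum was 0.482 to 0.587 CPM in shCTR and 0.359 to 0.918 CPM in shNSD2. Of 6 fibroblast and endothelial markers 3 had an entry, LUM with at most 3 counts, PECAM1 with at most 1, and VWF, which rose from 5.61 ± 0.126 CPM with shCTR to 7.56 ± 0.441 CPM with shNSD2 (SD over 3 libraries, adjusted p of 0.0273 by edgeR). With a library left out in turn, the calls of KLK2 and KRT8 were lost in 4 of 6 fits and those of KRT18 and VWF in 5, always including the fits without shCTR 2 and without shNSD2 3, with largest adjusted p-values of 0.106, 0.114, 0.134 and 0.112. The call of VWF was also lost with DESeq2 and with the replicate number as a block. The sum of those 3 endothelial and fibroblast entries was 5.47 to 5.87 CPM in shCTR and 7.37 to 8.06 CPM in shNSD2.

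With NSD2 reduced, transcripts of the mitochondrial ribosome were mostly higher, by a small amount. Of the 78 genes, 31 rose (39.7%, beside 15.5% of the 17160 genes tested), 1 fell (1.28%, beside 15.2%) and 46 did not pass the test at an edgeR adjusted p under 0.05. The log2 fold change of shNSD2 over shCTR was positive in 72 genes and negative in 6. Its median was 0.28, a 1.22-fold difference, with quartiles of 0.16 and 0.43 and a range of -0.85 to 0.69, beside a median of 0.01 and quartiles of -0.28 and 0.28 over all genes tested. In 39 genes every shNSD2 library lay above every shCTR library, and in 3 below, while this held for 24.0% and 22.8% of all genes tested. The number of the 78 called higher depended on the libraries used. It was 1 without shCTR 2 (beside 6.65% of all genes) and 62 without shCTR 4 (beside 23.9%). CPM is a share of each library, and in bulk RNA a change in every cell and a change in the makeup of the cells cannot be told apart.

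**Figure D1:**
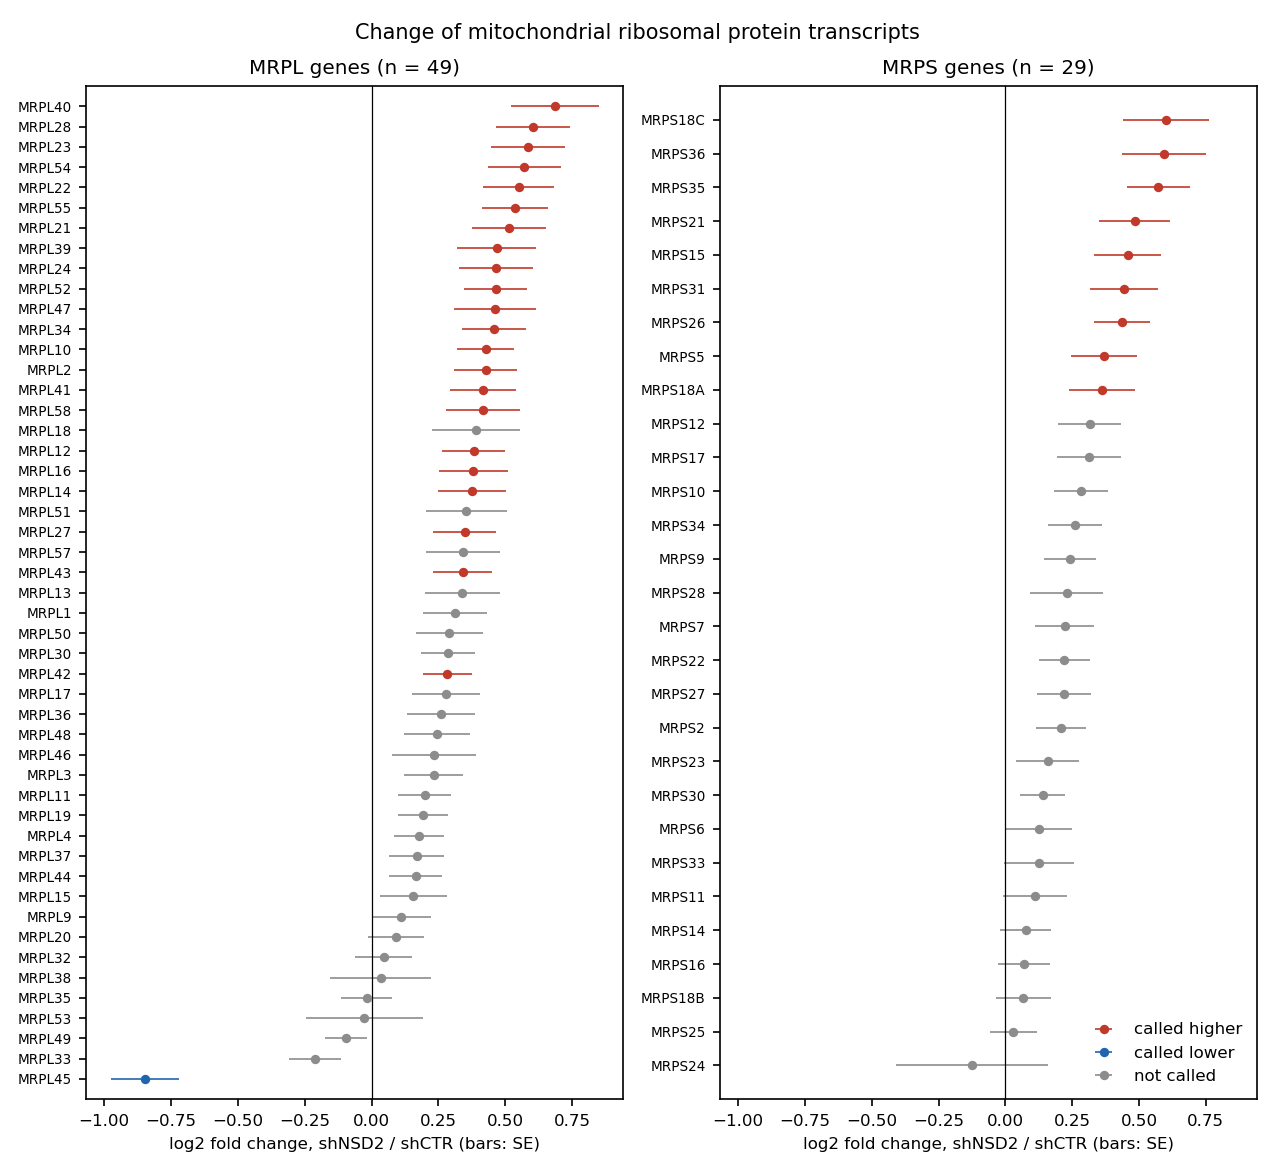
Log2 fold change of shNSD2 over shCTR (horizontal axis) for each of the 78 mitochondrial ribosomal protein genes, MRPL genes at the left and MRPS genes at the right, ordered by size, with bars for the standard error and red for called higher, blue for called lower and grey for not called. Of the 78 points, 72 lie right of 0, and MRPL45 at -0.85 lies far left of the rest.

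The plot of the log2 fold change of each gene shows a continuous gradient of small positive values rather than a few genes that move. Genes called higher ran from 0.28 (MRPL42) to 0.69 (MRPL40) on the log2 scale, and 4 of them reached 1.5-fold, namely MRPL40, MRPL28, MRPS18C and MRPS36. Among the 8 genes called higher with the smallest p-values, the standard errors were 0.105 (MRPS26) to 0.165 (MRPL40).

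The large subunit holds the peptidyl transferase centre and the tunnel through which the new chain leaves. Of 49 MRPL genes, 22 rose, 1 fell and 26 did not pass the test, with a median log2 fold change of 0.34. Among the 30 MRPL genes classed as having a bacterial counterpart 14 rose (median 0.34). Among the 19 classed as mitochondria-specific 8 rose and 1 fell (median 0.29). The shares called higher in these classes were thus alike in size, and their difference was not tested.

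MRPL40, a mitochondria-specific protein encoded in the chromosomal region deleted in DiGeorge syndrome, had the highest fold change of the set. MRPL40 (chr22:19431902-19436075, GRCh38, forward strand) stood at 42.2, 43.2 and 66.7 CPM in shCTR 1, 2 and 4 and at 72.7, 79.8 and 91.7 CPM in shNSD2 1, 2 and 3. The groups did not overlap, although shCTR 4 lay nearer to shNSD2 1 than to the other controls. The mean went from 50.7 ± 13.9 to 81.4 ± 9.60 CPM (SD, n = 3), a log2 fold change of 0.69 (SE 0.165, edgeR adjusted p = 0.0127).

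MRPL28 (chr16:366969-371289, reverse strand), the counterpart of bacterial L28, stood at 48.8, 54.0 and 75.5 CPM in shCTR and 90.7, 88.0 and 92.2 CPM in shNSD2. Its knockdown libraries were close together while its controls were spread, with shCTR 4 the highest of them. The log2 fold change of MRPL28 was 0.60 (SE 0.140, edgeR adjusted p = 0.0108). MRPL55 (chr1:228106679-228109312, reverse strand), the counterpart of bacterial L31, stood at 30.6, 31.8 and 42.5 CPM in shCTR and 51.9, 47.6 and 52.5 CPM in shNSD2. Again the groups were apart and shCTR 4 was the highest control, with a log2 fold change of 0.54 (SE 0.122, edgeR adjusted p = 0.0101).

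MRPL22, MRPL23 and MRPL24 are the counterparts of bacterial L22, L23 and L24, which line or surround the exit of the tunnel. MRPL23 (chr11:1947278-1984522, forward strand) stood at 36.3, 45.6 and 57.4 CPM in shCTR and 68.0, 67.8 and 73.0 CPM in shNSD2, a log2 fold change of 0.58 (SE 0.140, edgeR adjusted p = 0.0123). MRPL22 (chr5:154941070-154969411, forward strand) stood at 30.3, 33.1 and 44.5 CPM in shCTR and 49.9, 52.0 and 56.0 CPM in shNSD2, a log2 fold change of 0.55 (SE 0.132, edgeR adjusted p = 0.0125). In both genes all knockdown libraries lay above all controls. MRPL24 stood at 112, 118 and 164 CPM in shCTR and 167, 181 and 196 CPM in shNSD2, so that shCTR 4 nearly reached shNSD2 1 (log2 fold change 0.47, edgeR adjusted p = 0.0290). MRPL54 (chr19:3762664-3768575, forward strand), a mitochondria-specific protein, stood at 19.4, 22.5 and 28.9 CPM in shCTR and 33.4, 33.3 and 38.5 CPM in shNSD2. Its groups were apart, with a log2 fold change of 0.57 (SE 0.137, edgeR adjusted p = 0.0125).

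MRPL45 was the 1 gene of the 78 that fell. Its protein resembles the import motor component TIM44, sits beside the tunnel exit and helps to hold the ribosome on the inner membrane. MRPL45 (chr17:38297023-38323218, forward strand) stood at 23.7, 27.7 and 26.7 CPM in shCTR and at 17.3, 12.8 and 13.3 CPM in shNSD2. Here shCTR 4 lay between the other controls, and every knockdown library lay below all of them. The mean went from 26.1 ± 2.08 to 14.5 ± 2.46 CPM (SD, n = 3) and fell by 0.85 on the log2 scale (SE 0.127, edgeR adjusted p = 0.00191). MRPL45 was called lower under every one of the 16 alternatives, with log2 fold changes from -0.99 to -0.76. The pseudogene MRPL45P2, whose reads could be shared with it, stood at 7.34, 6.03 and 4.33 CPM in shCTR and 4.59, 4.26 and 5.82 CPM in shNSD2 (log2 fold change -0.27, edgeR adjusted p = 0.334).

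**Figure D2:**
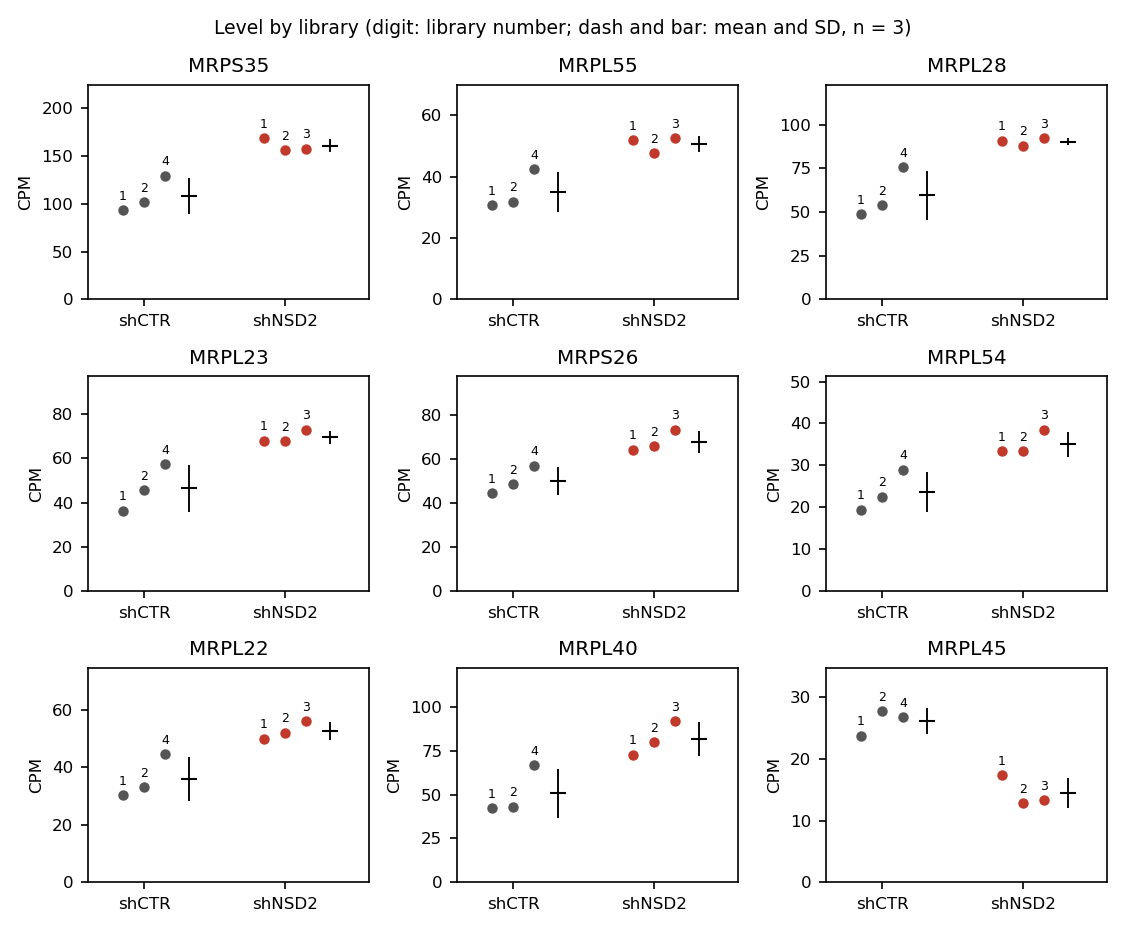
CPM (vertical axis) in each of the 6 libraries for the 8 genes called higher with the smallest p-values and for MRPL45, with a numbered point for each library and a dash and bar for the group mean and SD (n = 3). In the 8 genes the shNSD2 points lie above all shCTR points, and in MRPL45 they lie below, at 12.8 to 17.3 CPM against 23.7 to 27.7 CPM.

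The other genes with negative log2 fold changes were MRPL33 (-0.21, edgeR adjusted p = 0.117), MRPL49 (-0.10, adjusted p = 0.379), MRPL53 (-0.03), MRPL35 (-0.02) and MRPS24 (-0.13), and none of these passed the test. MRPL33, the counterpart of bacterial L33, stood at 35.1, 38.5 and 42.5 CPM in shCTR and 34.0, 35.0 and 31.2 CPM in shNSD2, so all knockdown libraries lay below all controls. The same held for MRPL49 by a narrow margin, at 105, 109 and 110 CPM in shCTR and 102, 104 and 98.1 CPM in shNSD2.

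The small subunit binds the messenger RNA and decodes it. Of 29 MRPS genes, 9 rose and 20 did not pass the test, with a median log2 fold change of 0.23. Of the 16 classed as having a bacterial counterpart 4 rose (median 0.24), and of the 13 classed as mitochondria-specific 5 rose (median 0.22). This split is by name, and the proteins of MRPS18A, MRPS30 and MRPS36 have other places, as given below. In 18 of the 29 MRPS genes and 21 of the 49 MRPL genes every knockdown library lay above every control, beside 24.0% of all genes tested.

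MRPS35, a mitochondria-specific protein, had the smallest p-value among the genes called higher. MRPS35 (chr12:27710773-27756295, forward strand) stood at 93.2, 102 and 129 CPM in shCTR and 169, 156 and 158 CPM in shNSD2. The gap between the highest control and the lowest knockdown library was wider than the range within the knockdown group, and the log2 fold change was 0.57 (SE 0.119, edgeR adjusted p = 0.00692). MRPS26 (chr20:3045945-3048254, forward strand), also mitochondria-specific, stood at 44.5, 48.6 and 56.9 CPM in shCTR and 64.2, 65.8 and 73.3 CPM in shNSD2. Its log2 fold change was 0.44 (SE 0.105, edgeR adjusted p = 0.0124), with no overlap of the groups. MRPS12, the counterpart of bacterial S12 at the decoding centre, had a mean of 53.7 ± 8.90 CPM with shCTR and 66.8 ± 4.44 CPM with shNSD2 (SD, n = 3) and did not pass the test (log2 fold change 0.31, edgeR adjusted p = 0.0622).

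The promoters of genes that move together can be set side by side, since promoters of nuclear genes for mitochondrial proteins are known to be bound by NRF1, by the ETS factor GABP and by YY1. RefSeq start sites on GRCh38.p14 were available for 69 of the 78 genes. The 150 bases before the start are shown on the gene's strand, 5′ to 3′, for 3 of the 8 genes called higher with the smallest p-values that hold an ETS core (the letters CCGGAAG, or CTTCCGG on the other strand, in capitals), for MRPS35, and for MRPL45, which fell. The windows are chr20:3045902-3046051, chr19:3762532-3762681, chr22:19432395-19432544, chr12:27710682-27710831 and chr17:38297018-38297167, all on the forward strand. The RefSeq starts differ from the gene positions given above, which come from GENCODE. Each of these windows reaches past the start of the GENCODE position, and the MRPL40 window lies wholly inside it.
MRPS26: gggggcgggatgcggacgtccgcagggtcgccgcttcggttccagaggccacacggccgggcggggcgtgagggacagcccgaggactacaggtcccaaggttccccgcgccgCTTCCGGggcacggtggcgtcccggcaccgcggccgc
MRPL54: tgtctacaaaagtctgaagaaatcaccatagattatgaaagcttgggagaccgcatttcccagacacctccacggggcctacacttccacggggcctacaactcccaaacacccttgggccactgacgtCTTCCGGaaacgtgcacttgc
MRPL40: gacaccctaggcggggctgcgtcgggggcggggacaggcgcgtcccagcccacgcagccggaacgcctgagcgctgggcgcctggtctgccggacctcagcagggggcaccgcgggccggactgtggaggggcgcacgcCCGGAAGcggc
MRPS35: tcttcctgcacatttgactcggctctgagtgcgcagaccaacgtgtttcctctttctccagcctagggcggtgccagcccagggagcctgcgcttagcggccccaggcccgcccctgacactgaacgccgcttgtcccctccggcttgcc
MRPL45: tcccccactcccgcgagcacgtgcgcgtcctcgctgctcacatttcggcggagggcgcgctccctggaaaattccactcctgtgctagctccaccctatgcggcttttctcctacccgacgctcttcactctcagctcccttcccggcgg
The MRPS35 and MRPL45 windows hold none of the letters searched, while MRPL45 has YY1 letters 14 bases after its start. Of the other genes among those 8, MRPL55 and MRPL22 hold no ETS core and MRPL23 has no promoter entry. MRPL28 holds an ETS core only after its start. In windows from 250 bases before to 50 after the start, searched on both strands, the ETS core was present in 30 of the 69 genes (43.5%), beside 22.1% of 10198 tested protein-coding genes and 12.2% of all 27305 genes with a promoter entry. The YY1 letters AAGATGG were present in 24 genes (34.8%), beside 9.44% and 7.11%, and the NRF1 letters GCATGCG in 7 (10.1%), beside 7.61% and 4.74%. In 17 of the 24 the YY1 letters lay 7 to 36 bases after the start, and since they contain ATG they can fall on a start codon. ETS and YY1 letters were both present in 9 genes, without overlapping, and a match describes the sequence, not binding. Of the 30 genes with an ETS core 14 rose (median log2 fold change 0.34), and of the 39 without it 12 rose (median 0.23). Of the 24 genes with YY1 letters 5 rose and MRPL45 fell (median 0.22), and of the 45 without them 21 rose (median 0.34). Of the 7 with NRF1 letters 4 rose (median 0.46), and of the 62 without them 22 rose (median 0.27). These differences were not tested.

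For 3 genes the MRPS name and the known place of the protein differ. MRPS30 and MRPS18A are found in the large subunit, and MRPS36 is now regarded as a component of the 2-oxoglutarate dehydrogenase complex. MRPS36 rose from 18.0 ± 4.80 to 27.2 ± 1.61 CPM (SD, n = 3), a log2 fold change of 0.59 (edgeR adjusted p = 0.0191) and MRPS18A from 21.3 ± 3.31 to 27.3 ± 2.30 CPM (log2 fold change 0.36, edgeR adjusted p = 0.0464). MRPS30 did not pass the test, with a log2 fold change of 0.14 (edgeR adjusted p = 0.226).

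Another 5 tested genes encode proteins of this ribosome under other names. DAP3, a GTP-binding protein of the small subunit (log2 fold change 0.34, edgeR adjusted p = 0.0463), AURKAIP1, of the small subunit (0.45, adjusted p = 0.0164), and GADD45GIP1, of the large subunit (0.46, adjusted p = 0.0156), rose. CHCHD1 (0.40, adjusted p = 0.0509) and PTCD3 (-0.003, adjusted p = 0.979), both of the small subunit, did not pass the test. PTCD3 was nearly the same in all libraries, at 130 ± 5.38 CPM with shCTR and 130 ± 0.733 CPM with shNSD2 (SD, n = 3).

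The control libraries differed from one another in these genes. The 78 genes together made up 0.402%, 0.444% and 0.533% of the counts in shCTR 1, 2 and 4 and 0.546%, 0.556% and 0.589% in shNSD2 1, 2 and 3. Their summed level was 4036, 4418 and 5389 CPM in shCTR and 5500, 5551 and 5846 CPM in shNSD2, a mean of 4614 ± 698 against 5632 ± 187 CPM (SD, n = 3). All knockdown libraries thus lay above all controls, but shCTR 4 was nearer to shNSD2 1 than to shCTR 2. shCTR 4 was the highest control in 74 of the 78 genes and shCTR 1 the lowest in 69. In mean log2 CPM over the genes, shCTR 4 stood at 86.6% of the shift from shCTR 1 and 2 to the shNSD2 libraries. Over all genes averaging 5 CPM or more the share was 48.7%, by a least-squares fit that weights genes of larger shift more. The measures differ, so these shares are not directly comparable. The summed level of cytosolic ribosomal protein genes was ordered in a like way, at 41129, 48986 and 61623 CPM in shCTR 1, 2 and 4 and 68518, 68033 and 74948 CPM in shNSD2 1, 2 and 3. The part of such a library-wide shift in the changes of the mitochondrial ribosome was not tested.

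**Figure D3:**
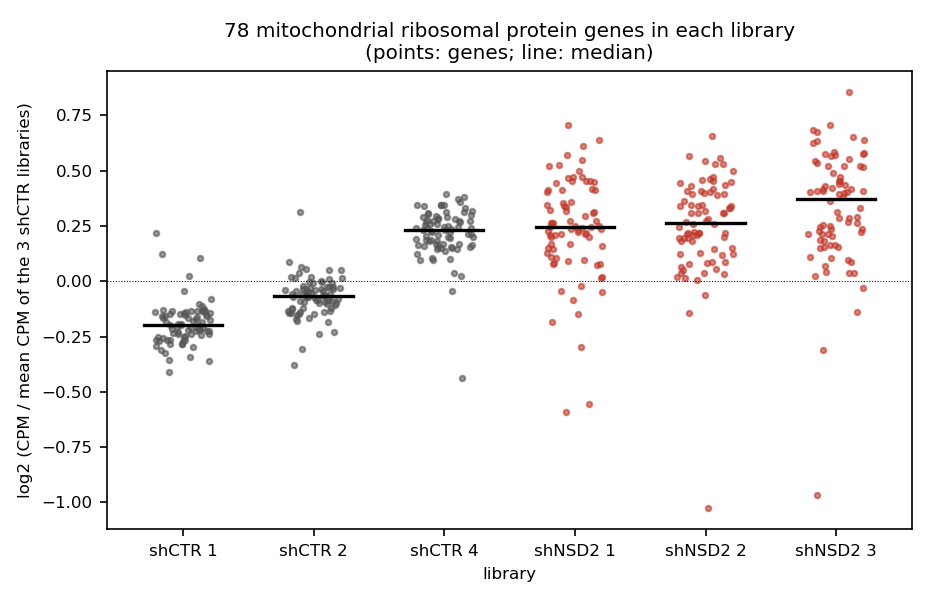
Log2 ratio of each of the 78 genes to its shCTR mean (vertical axis) in each of the 6 libraries (horizontal axis), with a point for each gene and a line for the median. The medians are -0.20, -0.07 and 0.23 in shCTR 1, 2 and 4 and 0.25, 0.26 and 0.37 in shNSD2 1, 2 and 3.

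The plot of log2 ratios by library shows shCTR 4 beside the knockdown libraries rather than beside the other controls. The number of genes called higher also moved with the libraries used. Leaving out shCTR 4 gave 62 (beside 23.9% of all genes in that fit). Leaving out shCTR 1 gave 12 (beside 8.51% of all genes), and leaving out shCTR 2 gave 1 (beside 6.65%). Among the knockdown libraries, leaving out shNSD2 1 gave 12 (beside 7.78%) and shNSD2 2 gave 14 (beside 8.28%). The fit without shNSD2 3 gave 3 (beside 6.33%). Without shCTR 2 and without shNSD2 3, a smaller share of the 78 genes than of all genes was thus called higher. All 31 genes were among the 62 called without shCTR 4. The direction was steadier than the call, since 69 to 74 of the 78 genes had a positive log2 fold change in each of the 6 fits, with medians of 0.19 to 0.41, and 66 were positive in all 6. Only MRPS35 and MRPL45 were called in all 6 fits, with edgeR adjusted p-values of at most 0.0371 and 0.0143. MRPL28 (adjusted p = 0.0543) and MRPL55 (0.0521) lost the call in the fit without shCTR 2 and kept it in the other fits. MRPL22, MRPL23, MRPL40, MRPL54 and MRPS26 lost it without shCTR 2 and without shNSD2 3, with adjusted p-values of at most 0.0639. MRPL24 kept its call only without shCTR 4, with an adjusted p of at most 0.119 in the other fits. The other genes called higher were called in 1 to 4 of the 6 fits.

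Against shCTR 1 and 2 alone, every shNSD2 library lay above in 69 of the 78 genes, beside 34.4% of all genes tested. The summed level was 1.22 times that of the 3 controls and 1.33 times that of shCTR 1 and 2. The ratio of summed CPM of MRPL to MRPS genes, split by name, was 1.73, 1.76 and 1.84 in shCTR 1, 2 and 4. In shNSD2 1, 2 and 3 it was 1.76, 1.85 and 1.89, so these groups overlapped.

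The genes are shorter than most. Merged exons had a median length of 2539 bases (959 to 16393) in the 78 genes and 5109 bases in the 12975 protein-coding genes tested, and the median GC content was 47.7% and 48.7%. Across the 78 genes, Spearman's rho with the log2 fold change was -0.27 for exon length, 0.163 for GC content and 0.053 for mean CPM, as a description over genes that share the same 6 libraries. When a trend with GC content and length was removed from the counts, 32 genes were called higher (beside 16.4% of all genes), 23 of them among the 31, and 65 had a positive log2 fold change. MRPS26 and MRPL41 lost their call under that correction, and MRPL45 kept it.

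Levels between genes were compared per kilobase of merged exon. MRPL41, a mitochondria-specific protein of the large subunit, had the highest mean level of the set at 142 CPM per kilobase. It rose from 153 ± 23.3 to 204 ± 22.7 CPM (SD, n = 3), a log2 fold change of 0.42 (edgeR adjusted p = 0.0289). MRPS34 followed at 103 CPM per kilobase (log2 fold change 0.26, adjusted p = 0.0725) and MRPL24 at 92.3. The lowest were MRPL46 at 1.13, MRPL38 at 0.889 and MRPS24 at 0.441 CPM per kilobase, none of which passed the test (log2 fold changes of 0.23, 0.03 and -0.13).

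Many of the low values lay where annotated genes overlap. MRPS18C, at 1.44 CPM per kilobase, shares no exon bases on its strand but 40.2% with ABRAXAS1 on the opposite strand. In 7 genes at least 20% of the exon bases are shared with another gene on the same strand, and their median level was 3.72 CPM per kilobase, against 21.8 in the other 71 genes. These are MRPL12 (68.2%, with AC139530.2), MRPL53 (45.2%, with CCDC142), MRPL38 (37.5%), MRPS28 (35.8%), MRPS17 (27.0%), MRPS24 (23.2%, with the read-through gene URGCP-MRPS24) and MRPL33 (21.1%, with BABAM2). Counting programs that drop reads falling in more than 1 gene give low values at such places, and whether that was done here was not tested. The values of these 7 genes, and the direction of MRPS24, MRPL38, MRPL53 and MRPL33 in particular, are therefore uncertain. Counting the opposite strand too, 41 genes share exon bases with another gene, of which 11 rose (median log2 fold change 0.22). Of the 37 genes without any such overlap 20 rose and 1 fell (median 0.38).

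**Figure D4:**
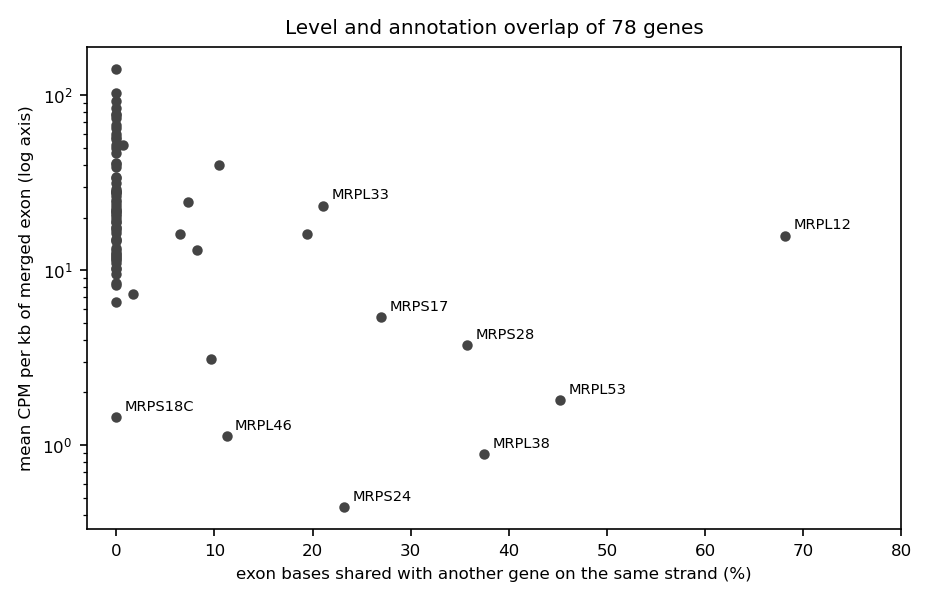
Mean level of each of the 78 genes in CPM per kilobase of merged exon (vertical log axis) against the percentage of its exon bases shared with another gene on the same strand (horizontal axis). The points with 20% or more lie at 23.4 CPM per kilobase or below, while points at 0 reach 142.

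Many of the genes share their start region with a neighbour on the opposite strand. In 29 of the 78, another protein-coding gene starts within 1000 bases and runs the other way, and 26 of these neighbours were tested and are not themselves in the set. Among the neighbours 4 rose and 2 fell, beside 15.5% and 15.2% of all genes tested, with a median log2 fold change of 0.01 and 14 positive values. Among the ribosomal genes beside them 10 rose, with a median of 0.34 and 25 positive values. The pairs MRPL41 with PNPLA7 and MRPL54 with APBA3 were the 2 in which both rose. In other pairs, named after their values were seen, the neighbour changed while the ribosomal gene did not pass the test. MRPL13 (0.34, edgeR adjusted p = 0.0863) lies beside MTBP, which fell by 0.51 on the log2 scale (adjusted p = 0.0126), and MRPL57 (0.34, adjusted p = 0.0806) lies beside the spindle gene SKA3, which fell by 0.36 (adjusted p = 0.0214). MRPL49 (-0.10) lies beside FAU, which encodes a cytosolic ribosomal protein fused to a ubiquitin-like one and rose by 0.57 (adjusted p = 0.0326). MRPL36 (0.26, adjusted p = 0.139) lies beside NDUFS6, a gene of respiratory complex I, which rose by 0.50 (adjusted p = 0.0145).

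Counts of called genes in the rest of the pathway are to be read beside the 15.5% of all tested genes that rose and the 15.2% that fell. Of 29 mitoribosome assembly genes, 3 rose (10.3%) and 1 fell (3.45%), with a median log2 fold change of 0.002. MTERF4, which guides an RNA methyltransferase to the mitochondrial ribosome, fell from 75.3 ± 5.95 to 44.6 ± 3.22 CPM (SD, n = 3), a log2 fold change of -0.75 (edgeR adjusted p = 8.94e-04). TFB1M, which methylates the small ribosomal RNA (0.52, adjusted p = 0.0246), and MRM3, which methylates the large one (0.33, adjusted p = 0.0311), rose. Of 19 mitochondrial translation factors and activators, 4 rose (21.1%) and 1 fell (5.26%, median 0.18). Those that rose include the initiation factor MTIF3 (0.54, adjusted p = 0.00757), the RNA-stabilising SLIRP (0.59, adjusted p = 0.0150) and the COX1 activator TACO1 (0.36, adjusted p = 0.0233).

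Of 20 mitochondrial tRNA synthetase genes 1 rose (5.0%), TARS2 (0.31, edgeR adjusted p = 0.0375), and the median was 0.09. Of 30 genes of mitochondrial RNA synthesis and processing, 2 rose (6.67%) and 3 fell (10.0%, median 0.005). KIAA0391, the nuclease of mitochondrial RNase P, fell by 0.54 (adjusted p = 0.0116), while HSD17B10, another subunit of that enzyme, rose by 0.46 (adjusted p = 0.0170), as did the oligoribonuclease REXO2 by 0.36 (adjusted p = 0.0179). Of 23 tested genes of mitochondrial protein import 4 rose (17.4%, near the share over all genes, median 0.26), among them TIMM17B (0.47, adjusted p = 0.00625), TOMM7 (0.53, adjusted p = 0.0202) and DNAJC19 (0.51, adjusted p = 0.0316). Of 9 regulators of nuclear genes for mitochondria 1 fell, the coactivator gene PPARGC1B (-0.52, adjusted p = 0.0384), and NRF1 (-0.10), GABPA (-0.15) and YY1 (0.04) did not pass the test. The calls of MTERF4, MTIF3, KIAA0391 and TIMM17B held whichever library was left out. GADD45GIP1, AURKAIP1 and SLIRP lost their call in 2 of the 6 fits (without shCTR 2 and without shNSD2 3), HSD17B10 in 3, and TACO1 and TOMM7 in 4. DAP3, TFB1M, MRM3, TARS2, REXO2, DNAJC19 and PPARGC1B lost it in 5 and were called only without shCTR 4. The largest adjusted p-values of these genes ran from 0.0669 (SLIRP) to 0.179 (DAP3). With the trend on GC content and length removed, GADD45GIP1, AURKAIP1, MRM3, TACO1, TARS2, HSD17B10 and PPARGC1B also lost the call. Without a low-count filter DAP3, MRM3 and TARS2 lost it, and with limma-voom PPARGC1B did.

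**Figure D5:**
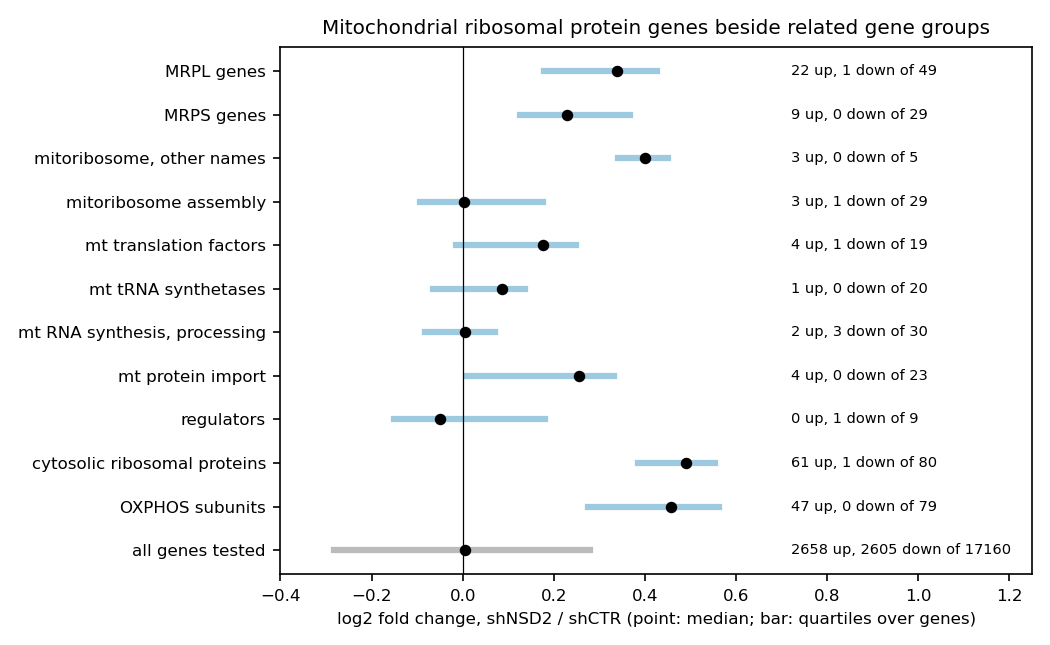
Median (point) and quartiles (bar) of the log2 fold change of shNSD2 over shCTR (horizontal axis) in the 2 families, in related gene groups and over all genes tested, with the numbers called higher (up) and lower (down) at the right. The medians of MRPL genes (0.34) and MRPS genes (0.23) lie between those of assembly genes (0.002) and cytosolic ribosomal protein genes (0.49).

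As the plot of medians by gene group shows, the medians of cytosolic ribosomal protein genes and of oxidative phosphorylation subunit genes were higher than those of MRPL and MRPS genes. Of 80 tested cytosolic ribosomal protein genes 61 rose and 1 fell, with a median of 0.49, and of 79 tested nuclear genes for oxidative phosphorylation subunits 47 rose, with a median of 0.46. These counts moved with the libraries as well. They were 75 and 70 without shCTR 4 (beside 23.9% of all genes in that fit). Without shCTR 2 they were 1 and 3 (beside 6.65%). The differences between these groups and the mitochondrial ribosomal genes were not tested.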

How the data were processed

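RNA of 6 libraries of the C42 cell line was made into polyadenylated RNA libraries with a KAPA mRNA kit, per the labels' protocols. The authors deposited raw read counts per gene, whole numbers with no normalization. CASAVA 1.8.2, STAR 2.6.0a and GRCh38 are named per the submitters' processing notes, and the sources used here give no counting program, annotation or strand setting, so reads of overlapping genes cannot be told apart.

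Counts were tested on the whole table with edgeR 4.0.16 in R 4.3.3 (filterByExpr by group, TMM, quasi-likelihood test, no covariate). After filtering, 17160 genes were tested and 14253 were not. Benjamini-Hochberg adjustment covered all tested genes, and "called", "rose" and "fell" mean an adjusted p under 0.05. CPM values are TMM-scaled. The common biological coefficient of variation was 0.106. The fit was also run on simulated data, in which genes were drawn independently of each other. Of 100 changes of 1.5-fold set there 68 were recovered, of 100 larger ones 97, and 12 of 177 calls were false. A shift shared by many genes of a library was not simulated. The chi-square per degree of freedom between libraries of a group was 4.07 to 42.7, so no pair agreed within sampling noise.

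Gene positions, exon lengths, GC content and overlaps came from GENCODE 29 on GRCh38, in which 31313 gene identifiers were found and 100 were not. Promoters came from RefSeq on GRCh38.p14. Classes with and without a bacterial counterpart and the pathway lists were written from general knowledge. The cytosolic ribosomal and oxidative phosphorylation groups were taken by symbol. Genes and lists were chosen with earlier results of these data known. Genes named are NSD2, up to 8 higher and up to 8 lower of smallest p (1 was lower), the 3 of highest and lowest CPM per kilobase and the 3 called genes of smallest p in each list; others are named as chosen after their values were seen or as the remaining members of a small group. Alternatives were other scalings (DESeq2 size factors, upper quartile, plain library size), other filters (none, 1 CPM), a robust fit, the replicate number as a block, removal of each library's trend on GC content and length (mgcv 1.9.3), DESeq2 1.42.0, limma-voom (limma 3.58.1) and each library left out. The change of 1 marker gene is not reported here.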

Additional observations from a re-analysis of the deposited data

How the results depend on the processing

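The number of the 78 genes called higher (31) was 24 to 34 under other scalings, filters, the robust fit, DESeq2 (30), limma-voom (32) and the correction for GC content and length (32), and 1 gene, MRPL45, was called lower in each. With a library left out it ran from 1 to 62 (lowest when shCTR 2 was left out, highest when shCTR 4 was). MRPL genes called higher (22) ran from 0 to 41, MRPS genes (9) from 1 to 21, and calls in either direction over the 10 pathway and marker lists (28) from 4 to 62. Over all genes, 6.65% were called higher without shCTR 2 and 23.9% without shCTR 4. The 0 is edgeR's count without shCTR 2, where 20 MRPL genes were higher at an unadjusted p under 0.05; DESeq2 and limma-voom, run on all 6 libraries, called 22 and 23. Each such fit has a smaller group, and the cause of the differences between these counts was not tested.

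The titles give replicate numbers 1 and 2 to both groups, and nothing says that a number marks a shared batch. Deviations of same-numbered libraries correlated at -0.0502 (number 1) and -0.065 (number 2), within the range of -0.160 to 0.196 of differently numbered pairs. Deviations from means of only 3 libraries cannot decide whether a batch was shared. With the replicate number as a block, 54 genes were called higher, 36 MRPL and 18 MRPS, beside 18.9% of all genes. Number 4 occurs only in shCTR and number 3 only in shNSD2, so that fit compares the groups through libraries 1 and 2 alone.

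With the correction for GC content and length 9 of the 78 genes changed the sign of their log2 fold change. Among them, MRPS34 (-0.0397) and MRPL38 (-0.18) turned negative. With a library left out, MRPL38 ran from -0.10 to 0.12 (-0.10 without shCTR 2, -0.07 without shNSD2 3) and MRPS24 from -0.30 to 0.0626 (0.0626 without shCTR 2, 0.0514 without shNSD2 1). The cause was not tested. MRPS34, MRPL38 and MRPS24 did not pass the test with all libraries. NSD2 ran from -1.34 to -1.27. A count of 3 was worth at most 0.156 CPM, and all of the 78 genes were detected in every library. The lowest mean level was 1.15 CPM in MRPS24, which had 16 to 31 counts per library and an SE of 0.284.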

Other observations

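Beside the 78 genes, the table holds 23 entries with MRPL or MRPS in their symbol that are not protein-coding members, 21 of them pseudogenes, together with MRPL23-AS1 and MRPS30-DT. The pseudogenes held counts equal to 0.275% of those of the 78 genes. Of the 23, 7 passed the filter and 1 was called. MRPS31P5, named after its values were seen, stood at 2.10, 1.21 and 0.782 CPM in shCTR and 0.561, 0.770 and 0.485 CPM in shNSD2, a log2 fold change of -1.17 (SE 0.389, edgeR adjusted p = 0.0426). Its parent gene MRPS31 went the other way, from 18.2 ± 3.56 to 24.8 ± 0.292 CPM (SD, n = 3; log2 fold change 0.44, edgeR adjusted p = 0.0257). In both genes the groups did not overlap, although in MRPS31P5 shCTR 4 was only just above shNSD2 2, at levels of few counts.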
